A study of Junonia coenia with 20 samples.

Results

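The 60 transcripts described here were chosen by their measured levels: low in pupal hind wings of the common buckeye, the nymphalid butterfly Junonia coenia, before pigment appears, and higher in the stages before and after. They were taken from 16251 transcripts measured by RNA sequencing and make up 0.369% of them. Each transcript received a pre-pigment gap: the lowest of its mean log2 levels in larval discs, early ommochrome wings and late ommochrome wings, minus its highest log2 level among the 4 pre-pigment libraries. The 60 largest gaps define the members. The same values therefore chose the members and show the dip, so levels in pre-pigment wings against the other stages are a description, and no test of them is read.

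The libraries came from 2 seasonal colour morphs, Rosa and Linea, each sampled at 4 stages: imaginal discs from caterpillars in instar 5, pupal wings not yet pigmented, wings laying down the early yellow ommochromes and wings laying down the late orange and red ones. Animals came from 1 North Carolina population raised on artificial diet, either at 21°C with 8 h light or at 27°C with 16 h light per day. Which morph was reared in which regime is not stated, so a morph difference cannot be told apart from a difference in rearing. Of 20 labelled samples, 16 were analysed, 2 for each morph and stage. Nothing says that replicates came from separate animals. The p-values below therefore reflect the spread among libraries, and that spread may be technical.

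A butterfly wing grows as an imaginal disc in the caterpillar and becomes a sheet of scale-forming cells in the pupa. Scale cells first shape their cuticle and then fill with pigment late in pupal life. In nymphalids the yellow, orange and red tones are largely ommochromes, pigments made from tryptophan. The table names transcripts by identifiers of the authors' own assembly, without gene names or sequences, so nothing is said of what the members encode. Whether the samples held wing cells alone could not be checked with marker genes. In bulk tissue, fewer cells of a type and less RNA per cell cannot be told apart.

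Values are scaled RPKM: the deposited RPKM, reads adjusted for transcript length and library size, divided by a factor for each library. Levels can thus be compared between transcripts per length. Log2 levels are log2(scaled RPKM + 1), which understates differences of low transcripts. The scaling factors were 1.67 to 1.81 in larval discs, 0.578 to 0.804 in pre-pigment wings, 0.616 to 1.42 in early ommochrome wings and 0.718 to 1.17 in late ommochrome wings, so factors in larval and pre-pigment libraries did not overlap. Summed RPKM was between 487429 and 832300 per library, and 11339 to 14314 transcripts reached 1 RPKM. RPKM keeps no read count, so sequencing depth is unknown.

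The gap of the members was between 0.67 and 1.95 on the log2 scale, with a median of 0.92. Only 25 of the 16251 transcripts, all of them members, had a gap above 1, and 807 (4.97%) had a gap above 0. The members were moderately abundant outside the pre-pigment stage. Their mean scaled RPKM over the other 12 libraries had a median of 8.56, against 7.87 for all transcripts, and a range of 1.13 to 186. In pre-pigment wings the median of their means was 0.477 scaled RPKM, and 28 of the 60 stayed under 1 scaled RPKM in all 4 pre-pigment libraries. At the other end, 13 members reached at least 5 scaled RPKM in a pre-pigment library, so for these the dip was a partial one.

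The dip of the members as a set was visible in each library. The median member stood at 8.15 and 7.05 scaled RPKM in Rosa larval discs and at 8.75 and 7.81 in Linea larval discs. Pre-pigment medians were 0.225 and 0.37 in Rosa and 0.759 and 0.548 in Linea. Early ommochrome medians were 5.45 and 6.76 in Rosa and 4.65 and 4.86 in Linea, and late ommochrome medians were 6.49 and 7.95 in Rosa and 3.82 and 7.44 in Linea. The 4 pre-pigment medians lay below all 12 others, and the 2 Rosa pre-pigment libraries below the 2 Linea ones. Summed over the 60 members, the level was 1470 ± 162 scaled RPKM in larval discs, 196 ± 26.6 in pre-pigment wings, 868 ± 290 in early ommochrome wings and 999 ± 257 in late ommochrome wings (SD, n = 4 each).

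**Figure D1:**
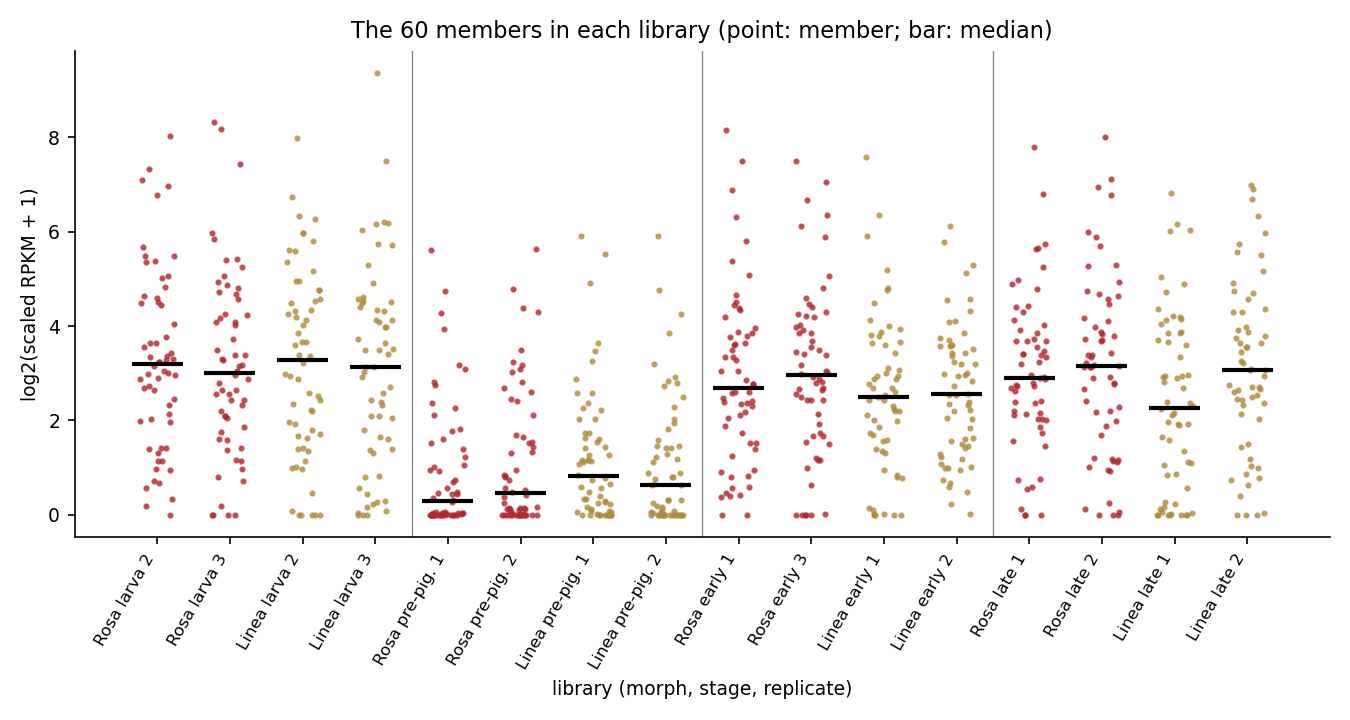
Log2(scaled RPKM + 1) of the 60 members (points) in each of the 16 libraries, with Rosa in red, Linea in tan and the median of the 60 as a black bar; grey lines part the 4 stages. The pre-pigment medians, between 0.225 and 0.759 scaled RPKM, lie below those of all 12 other libraries.

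Many members were listed at 0 in single pre-pigment libraries. Between 7 and 12 members were listed at 0 in a pre-pigment library, against 0 to 2 in a larval, 0 to 4 in an early ommochrome and 2 to 4 in a late ommochrome library. In all, 20 members were listed at 0 in at least 1 pre-pigment library, 7 of them in 1, 10 in 2, 3 in 3 and 0 in all 4. Among all transcripts the share listed at 0 also differed by stage, at 1.90% to 4.36% in larval, 4.86% to 6.39% in pre-pigment, 2.39% to 5.85% in early ommochrome and 4.76% to 7.40% in late ommochrome libraries. How far this share bears on the members was not tested.

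A low stage mean did not mean that each library followed. In 19 members all 12 libraries outside the pre-pigment stage lay above all 4 pre-pigment libraries, a pattern that 0.265% of all transcripts (43 of 16251) showed. The remaining members had 11 of 12 libraries above in 17 cases, 10 in 12 cases, 9 in 6 cases, 8 in 4 cases and 7 in 2 cases. Linea late ommochrome replicate 1 broke the pattern most often, with 13 members at or below their highest pre-pigment value, and Linea larva replicate 3 was next with 11. Rosa early ommochrome replicate 1 broke it least, with 2 members. Of all transcripts, 80.4%, 67.9% and 77.0% lay at or below their highest pre-pigment value in these libraries, in the same order. The opposite arrangement, all 12 libraries below all 4 pre-pigment ones, was found in 203 transcripts (1.25%).

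**Figure D2:**
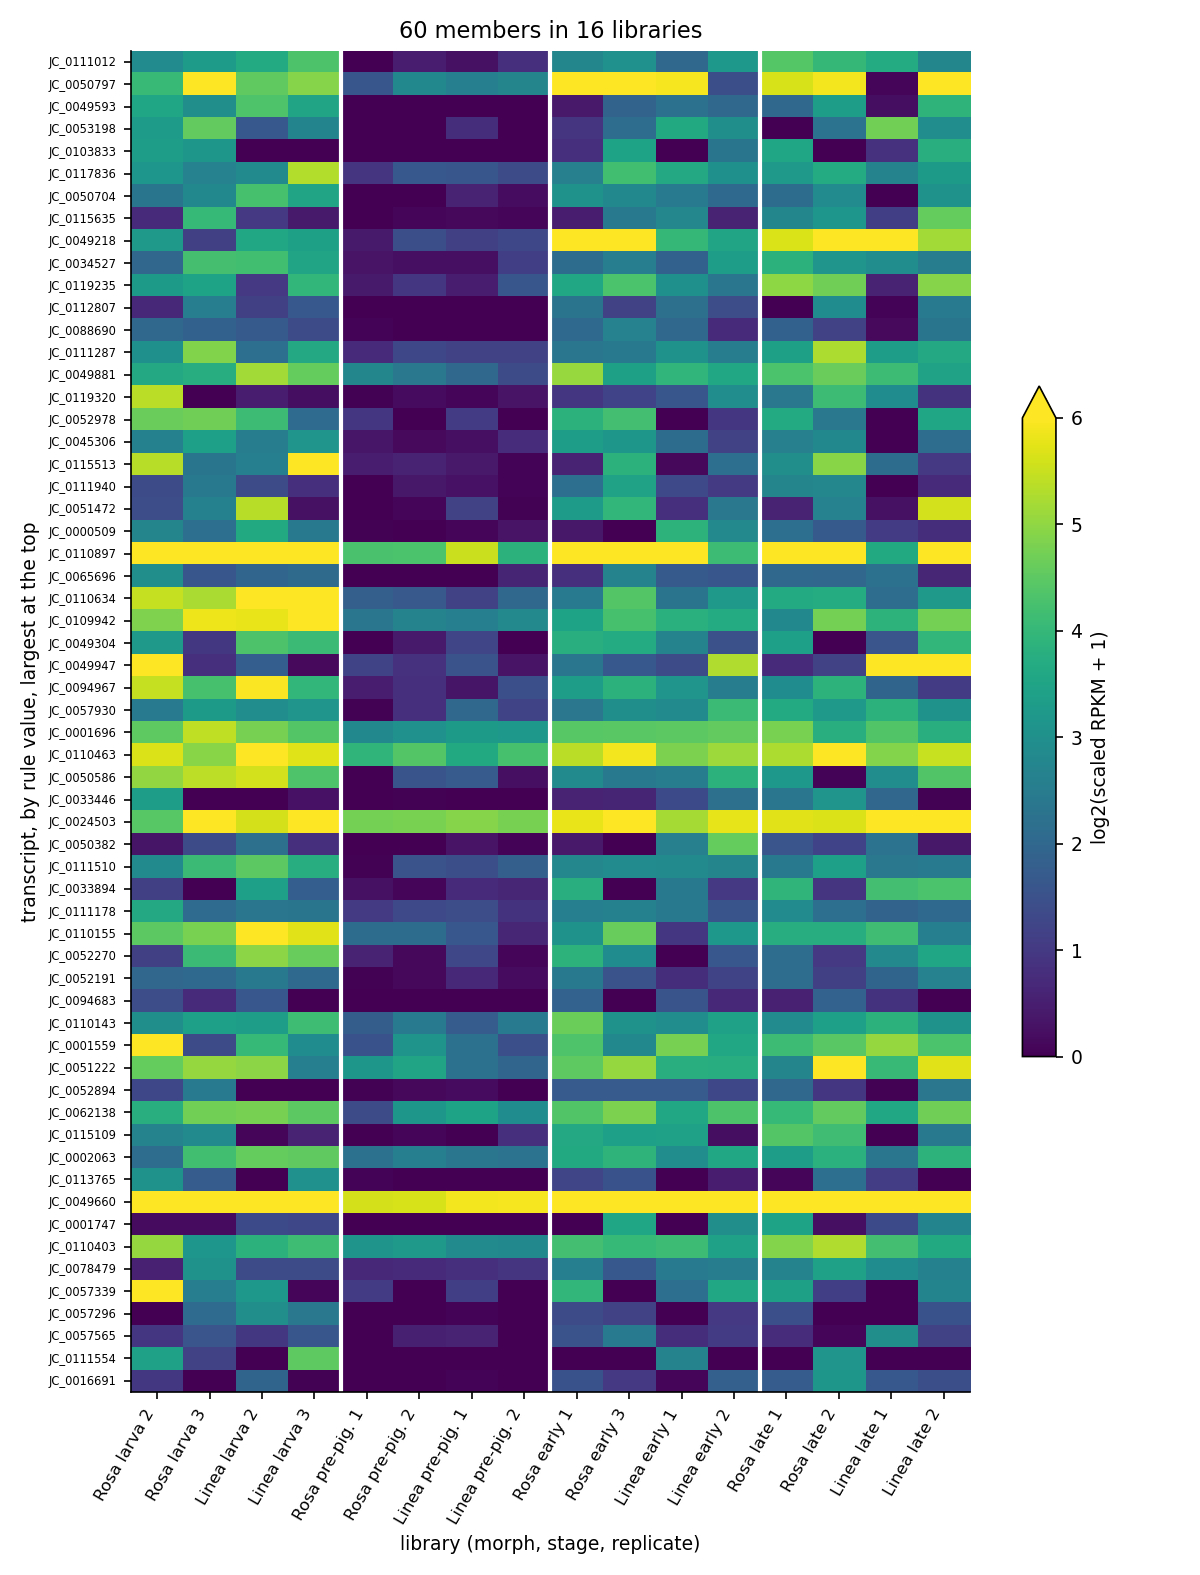
Log2(scaled RPKM + 1) of the 60 members (rows, largest gap at the top) in the 16 libraries (columns, Rosa left of Linea within each stage; white lines part the stages); colours stop at 6 and higher values share the top colour. The 4 pre-pigment columns are the darkest, and dark cells also appear elsewhere, as in Linea late ommochrome replicate 1, where 13 members lie at or below their highest pre-pigment value. In that library 80.4% of all transcripts do.

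JC_0111012 had the largest gap, 1.95. Its values were 6.47 and 8.82 scaled RPKM in Rosa and 11.7 and 19.1 in Linea larval discs, then 0 and 0.397 in Rosa and 0.2 and 0.739 in Linea pre-pigment wings. It returned to 5.8 and 7.16 in Rosa and 3.04 and 8.18 in Linea early ommochrome wings, and to 20.4 and 14.9 in Rosa and 12.0 and 5.72 in Linea late ommochrome wings. All 12 libraries outside the pre-pigment stage were above all 4 within it. The lowest of the 12, 3.04, was an early ommochrome library and the highest of the 4, 0.739, a Linea one.

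JC_0049593, with a gap of 1.64, was close to silent before pigment. It was listed at 0 in 1 Rosa and 1 Linea pre-pigment library and reached 0.00046 and 0.00489 scaled RPKM in the others. Larval values were 10.8 and 6.83 in Rosa and 19.2 and 10.3 in Linea. It was lower again in early ommochrome wings, at 0.325 and 2.78 in Rosa and 3.75 and 3.06 in Linea, and had 3.09 and 9.1 in Rosa and 0.171 and 14.0 in Linea late ommochrome wings. No library outside the pre-pigment stage overlapped with those inside it, although 0.171 in a late library is itself close to 0.

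JC_0050797, with a gap of 1.78, was much more abundant and was low in 2 single libraries as well. Pre-pigment values were 2.05 and 6.0 scaled RPKM in Rosa and 5.0 and 5.59 in Linea, below the larval 15.5 and 62.2 in Rosa and 22.0 and 29.0 in Linea. Early ommochrome wings gave 78.5 and 133 in Rosa but 59.6 and 1.73 in Linea, and late ommochrome wings gave 48.4 and 58.3 in Rosa but 0.0804 and 103 in Linea. Linea early ommochrome replicate 2 and Linea late ommochrome replicate 1 lay under the pre-pigment range, while the Rosa libraries did not.

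JC_0053198, with a gap of 1.63, differed between the morphs in its order of stages. In Rosa it stood at 8.82 and 22.7 scaled RPKM in larval discs, 1.27e-06 and 0 before pigment, 0.88 and 3.39 in early ommochrome wings and 0 and 3.87 in late ommochrome wings. In Linea it stood at 2.16 and 5.51, 0.725 and 0, 11.6 and 6.89, and 25.4 and 6.74 at the same stages. Rosa was highest in the larva and Linea in the pupa, and 1 Rosa late ommochrome library was at 0, as low as pre-pigment wings.

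The 2 members with the highest levels outside the pre-pigment stage were JC_0049660 and JC_0110897, with gaps of 0.748 and 1.09. JC_0049660 had 48.2 and 49.0 scaled RPKM in Rosa and 58.9 and 59.3 in Linea pre-pigment wings. Its lowest value elsewhere was 68.9, in Linea early ommochrome replicate 2, and its highest 661, in Linea larva replicate 3. All 12 libraries were above the 4 pre-pigment ones, which lay close together at 53.9 ± 6.06 (SD, n = 4).

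JC_0110897, the other of the pair with the highest levels, had 18.3 and 18.7 scaled RPKM in Rosa and 45.0 and 13.4 in Linea pre-pigment wings. Rosa larval discs held 109 and 172, and Linea larval discs 105 and 181. Early ommochrome wings held 286 and 181 in Rosa and 191 and 16.3 in Linea, and late ommochrome wings 223 and 256 in Rosa and 11.6 and 126 in Linea. The libraries at 16.3 and 11.6 were the same Linea early replicate 2 and Linea late replicate 1 that were low for JC_0050797, and neither lay above the pre-pigment range.

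At the low end, JC_0094683 had at most 7.87e-05 scaled RPKM in a pre-pigment library, and was listed at 0 in both Linea ones. Elsewhere it was never above 2.70, and it was at 0.0043 in 1 Rosa early, 4.18e-06 in 1 Linea larval and 0 in 1 Linea late ommochrome library. JC_0057296 was listed at 0 in 3 pre-pigment libraries and at 0.0393 in the fourth, and at 0 in 1 Linea early, 1 Rosa late and 1 Linea late ommochrome library too. Its Rosa larval discs were uneven as well, at 1.65 ± 2.33 (SD, n = 2), and 8 of 12 libraries lay above all pre-pigment ones. JC_0094683 and JC_0057296 thus overlap with the pre-pigment range in single libraries, so their place rests on stage means.

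The cut at 60 members falls within a continuum. Just inside it, JC_0111554 and JC_0016691 had gaps of 0.672 and 0.668, and just outside it, JC_0049331 and JC_0097244 had gaps of 0.667 and 0.658. JC_0111554 had no more than 0.000457 scaled RPKM before pigment, but its early ommochrome mean rested on 1 library, Linea replicate 1 at 5.42, and its late mean on Rosa replicate 2 at 7.77; the other 6 of these 8 libraries were at 0.0152 or less. JC_0016691 had at most 0.0484 before pigment and had 1.85 and 0.98 in Rosa and 0.0728 and 2.59 in Linea early ommochrome wings. The non-member JC_0049331 was far more abundant, with 116 and 125 in Rosa and 84.6 and 126 in Linea pre-pigment wings and at least 152 in each of the other 12 libraries. JC_0097244, also outside, had 15.5 to 22.4 before pigment and 27.0 to 107 elsewhere, again without overlap. The rule thus took some low transcripts with broken patterns ahead of abundant ones with a full separation, and 24 of the 43 fully separated transcripts are not members.

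Outside the pre-pigment stage the members varied more between libraries than most transcripts. The SD of the log2 level over the 4 libraries of a stage had a median of 0.94 for members and 0.56 for all transcripts in larval discs, 0.78 and 0.53 in early ommochrome wings, and 0.98 and 0.60 in late ommochrome wings. In pre-pigment wings the order was the other way, 0.29 for members and 0.64 for all transcripts, a value that the rule bounds by taking the highest of the 4 libraries. No test was made of these spreads.

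Membership depended on single pre-pigment libraries. Picking again without Rosa pre-pigment replicate 2 kept 24 of the 60 members, without Linea replicate 2 kept 29, without Linea replicate 1 kept 36 and without Rosa replicate 1 kept 38. Leaving out any of the other 12 libraries kept 51 to 55. A pseudocount of 0.1 in place of 1 kept 34, and RPKM without scaling kept 41.

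The same rule centred on each of the 4 stages sets the pre-pigment dip beside dips at other times. A gap above 0 was found in 3019 transcripts centred on larval discs, 807 on pre-pigment wings, 321 on early ommochrome wings and 634 on late ommochrome wings. Gaps above 1 numbered 1166, 25, 0 and 6 in the same order. Turned over, to find transcripts whose lowest library at a stage exceeds the highest mean of the other 3, the rule gave 3286, 814, 555 and 513 transcripts above 0, and 699, 134, 21 and 19 above 1. Dips before pigment deeper than 1 were thus fewer than peaks before pigment higher than 1, at 25 against 134. The 2 counts are not evenly set against each other. Log2 levels stop at 0, so a dip can be no deeper than the lowest mean of the other 3 stages, whereas a peak has no such bound.

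Each morph showed the dip on its own for most members, which the choice on both morphs favours. With the gap taken over Rosa libraries alone it was above 0 in 57 of 60 members, and over Linea libraries alone in 53 of 60, with 51 above 0 in both. The median gap was 1.15 in Rosa and 0.67 in Linea. Gaps above 0 within a morph were also common among all transcripts, at 13.5% in Rosa and 10.8% in Linea, since each morph has 2 pre-pigment libraries and the rule then asks less.

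Picking in 1 morph and reading in the other keeps choice and reading in separate libraries, with scaling done within each morph. Of the 60 transcripts with the largest gaps in Linea, 20 (33.3%) had a gap above 0 in Rosa, against 13.7% of all transcripts, and 8 had a gap above 1, against 1.40% of all. Their median gap in Rosa was -0.61, against -0.89 for all transcripts, so most of them did not dip there. Of the 60 picked in Rosa, 10 (16.7%) had a gap above 0 in Linea, against 10.3% of all, with a median of -1.54 against -0.92. The Linea picks shared 14 transcripts (23.3%) with the members and the Rosa picks 13 (21.7%). Without Linea pre-pigment replicate 1 or 2, the Linea picks with a gap above 0 in Rosa numbered 11 or 12, and without Rosa pre-pigment replicate 1 the Rosa picks above 0 in Linea numbered 1. In the direction from Rosa to Linea the median of the picks lay below that of all transcripts.

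**Figure D3:**
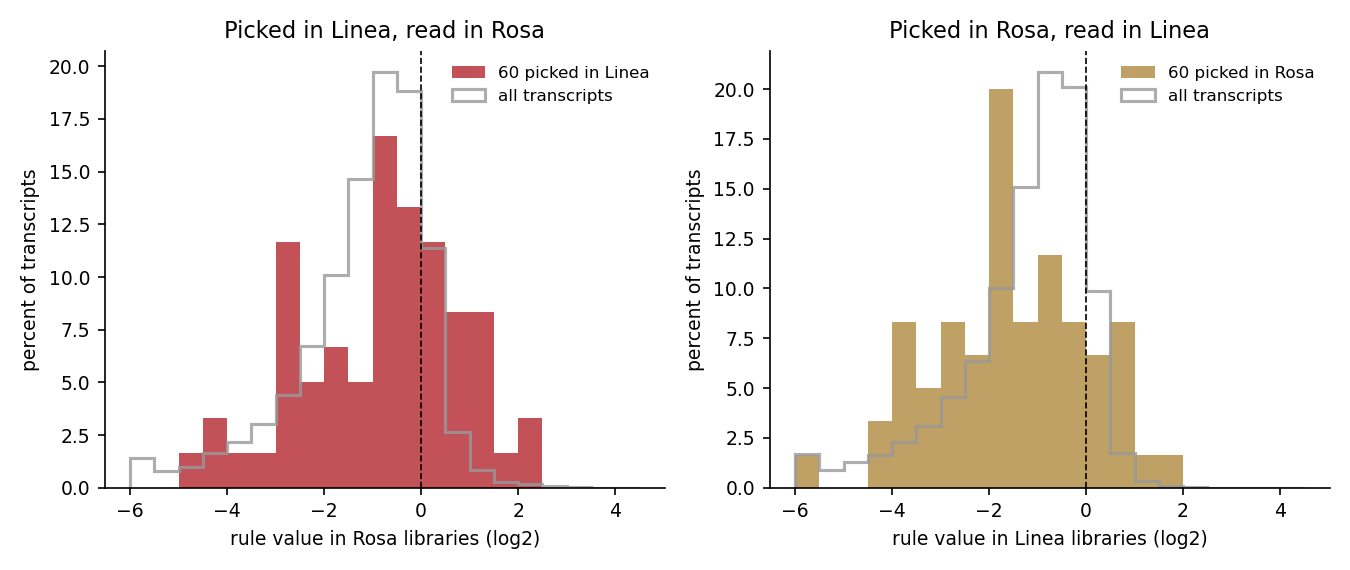
Percent of transcripts by pre-pigment gap (log2, bins of equal width), for the 60 picked in Linea and read in Rosa (left, red) and the 60 picked in Rosa and read in Linea (right, tan), each beside all transcripts (grey outline); the lowest bin also holds lower values and the dashed line marks 0. Right of the line lie 33.3% of the Linea picks against 13.7% of all, and 16.7% of the Rosa picks against 10.3% of all.

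The 3 contrasts that the rule used are listed once for completeness. In limma's fit over all 15798 transcripts that passed the low-value filter, as all 60 members did, 36 members were lower in pre-pigment wings than in larval discs, where 14.4% of all transcripts were called lower. In early ommochrome wings 2 members were called higher than before pigment, where 0.228% of all were, and in late ommochrome wings 8 were, where 0.874% of all were. Nothing is read from these counts, since the rule fixes them.

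Differences between the stages outside the dip are not independent of the rule either. The rule ranked transcripts by the lowest of the larval, early and late means, which sets no order among the 3 but favours transcripts in which they are alike. These differences are therefore given as a description, and nothing is read from the counts of members called. The highest stage was the larva for 31 members, late ommochrome for 19 and early ommochrome for 10. In 32 members the 3 means lay within 2-fold of each other on the log2(scaled RPKM + 1) scale, against 48.7% of all transcripts.

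Between early ommochrome wings and larval discs, limma called 7 of 60 members at an adjusted p under 0.05, 1 higher and 6 lower in early ommochrome wings, where 25.6% of all transcripts were called (13.5% higher and 12.1% lower). The members' median change was -0.26, against -0.03 for all transcripts. Of the 60 members 45 changed by less than 2-fold, against 57.9% of all transcripts. With RPKM left unscaled, 18 members (30.0%) were called, 0 higher and 18 lower, where 39.7% of all transcripts were called and their median change became -0.725.

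Between late ommochrome wings and larval discs, limma called 8 members, 1 higher and 7 lower in late ommochrome wings, where 24.6% of all transcripts were called (12.3% each way). The median change was -0.19 for members and -0.11 for all transcripts. Of the 60 members 34 changed by less than 2-fold, near the share of all transcripts, 58.4%. The count was 13 without Rosa larva replicate 2, where 23.0% of all transcripts were called, and 5 without Linea larva replicate 3, Rosa larva replicate 3, Rosa late ommochrome replicate 1 or Rosa late ommochrome replicate 2, where 18.2% to 20.9% of all were. Single libraries thus moved it by over 1.5 times. Both comparisons with the larva share the larval libraries.

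JC_0049218 was the 1 member that limma called higher than in larval discs; 19 members had their highest mean in late and 10 in early ommochrome wings. Early ommochrome values were 118 and 68.3 scaled RPKM in Rosa and 15.0 and 10.4 in Linea, and late ommochrome values were 49.2 and 123 in Rosa and 63.5 and 34.9 in Linea. Larval discs had 8.45 and 1.19 in Rosa and 11.2 and 9.58 in Linea, and pre-pigment wings 0.351 and 1.71 in Rosa and 1.2 and 1.45 in Linea. The 4 late ommochrome libraries were above the 4 larval ones, whereas 1 Linea early ommochrome library lay within the larval range. Late ommochrome wings averaged 67.5 ± 38.5 against 7.61 ± 4.43 in larval discs (SD, n = 4 each). The log2 difference from larval discs was 3.10 ± 0.50 (SE) in late and 2.29 ± 0.50 in early ommochrome wings; the early one was not called with RPKM left unscaled.

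JC_0110634 had the largest larval excess of the members and regained little of it. Larval discs held 43.6 and 37.0 scaled RPKM in Rosa and 62.2 and 72.1 in Linea, and pre-pigment wings 2.54 and 2.22 in Rosa and 1.25 and 3.1 in Linea. Early ommochrome wings held 4.6 and 20.2 in Rosa and 3.93 and 8.48 in Linea, and late ommochrome wings 11.8 and 12.1 in Rosa and 3.43 and 8.35 in Linea. The larval libraries lay above all others, and the pre-pigment ones below all others. The log2 difference from larval discs was -2.62 ± 0.46 (SE) in early and -2.54 ± 0.46 in late ommochrome wings.

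JC_0094967 was likewise highest in the larva. It had 6.57 and 13.7 scaled RPKM in Rosa and 2.79 and 1.05 in Linea late ommochrome wings, and 9.16 and 13.4 in Rosa and 7.69 and 4.87 in Linea early ommochrome wings. Larval discs had 43.7 and 18.1 in Rosa and 61.8 and 14.7 in Linea, and pre-pigment wings 0.388 and 0.776 in Rosa and 0.258 and 1.76 in Linea. Larval values did not overlap with those of either ommochrome stage, while 1 Linea late library, at 1.05, lay within the pre-pigment range. The log2 difference between late ommochrome wings and larval discs was -2.48 ± 0.53 (SE).

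JC_0050586 had lower values in ommochrome wings than in larval discs, with a less stable call. It had 6.26 and 4.39 scaled RPKM in Rosa and 4.77 and 13.4 in Linea early ommochrome wings, against 31.6 and 41.2 in Rosa and 47.0 and 19.2 in Linea larval discs. Those groups did not overlap, and the log2 difference was -2.17 ± 0.71 (SE). The limma call was lost with a pseudocount of 0.1 and in 8 of 16 fits without a library, those without any 1 of the larval or early ommochrome libraries. In late ommochrome wings it had 8.18 and 0.0371 in Rosa and 6.63 and 19.7 in Linea, and before pigment 0.00111 and 1.93 in Rosa and 2.31 and 0.184 in Linea. The late difference from larval discs was -2.45 ± 0.71 (SE, log2), and 1 late library, at 0.0371, lay within the pre-pigment range.

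**Figure D4:**
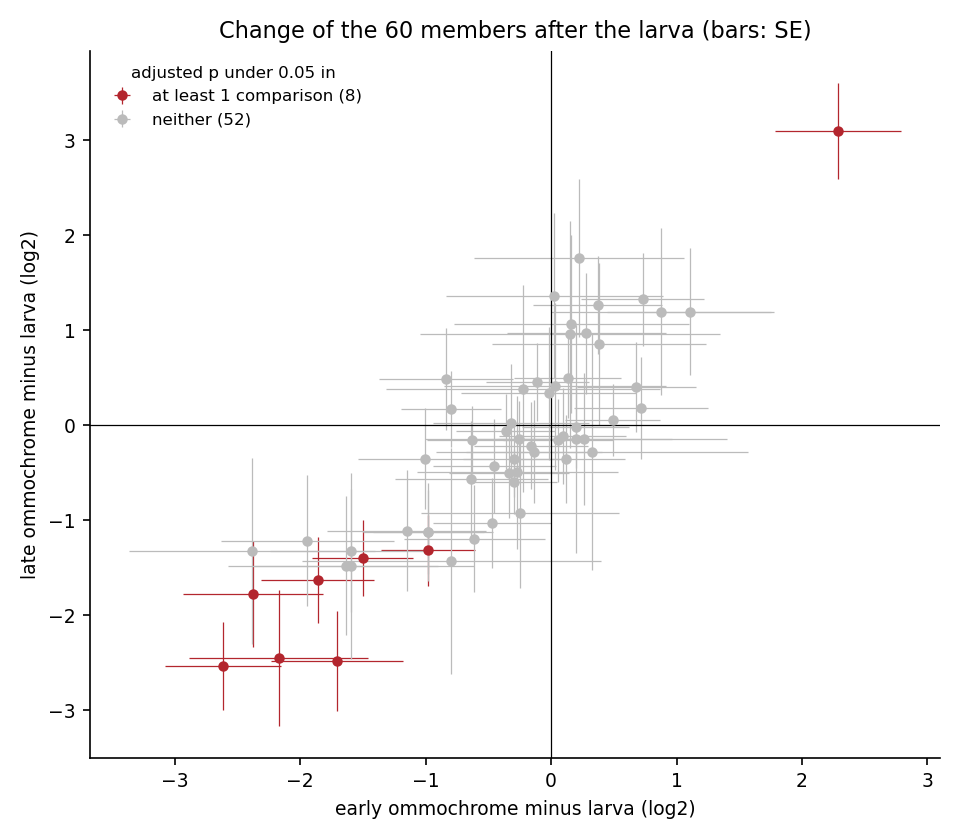
Log2 change of the 60 members between early ommochrome wings and larval discs (x axis) and between late ommochrome wings and larval discs (y axis), with SE bars from limma; both axes share the larval libraries. Red marks the 8 members called in at least 1 of the comparisons and grey the other 52; JC_0049218, at 2.29 and 3.10, stands at the upper right.

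Between late and early ommochrome wings limma called 0 members and 0% of all transcripts, again as a description. An unadjusted p under 0.05 was found in 2 members (3.33%), against 5.34% of all transcripts. The members' median difference was 0.09, against -0.06 for all, and became -0.02 without Linea late ommochrome replicate 2. In 56 of 60 members the difference was less than 2-fold, against 89.8% of all transcripts. JC_0111287 differed by most against its error: its late ommochrome values were 9.68 and 37.6 scaled RPKM in Rosa and 9.1 and 11.4 in Linea, its early ommochrome values 4.11 and 4.37 in Rosa and 7.37 and 4.78 in Linea. These 2 stages did not overlap, and the difference was 1.32 ± 0.54 (SE, log2).

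The rule did not use the difference between the morphs within a stage outside pre-pigment, and limma called no member at any of the 3 stages. Limma's estimate of spread, however, also draws on the pre-pigment libraries, where the rule bounds the members' values. Shares of members with a low unadjusted p are therefore not evenly set against those of all transcripts. With the libraries of each stage fitted alone, limma called 0 members and 0% of all transcripts at each stage, so nothing about the members is read from those fits. In larval discs limma called 0 of 60, where 0.114% of all transcripts were called, and 5 members (8.33%) had an unadjusted p under 0.05, against 6.48% of all. The median difference, Rosa minus Linea, was -0.01 for members and -0.01 for all transcripts. Without Rosa larva replicate 3 the count was 3 (5.0%), where 1.08% of all transcripts were called, and the members' median was -0.32. JC_0052894 had the lowest p, with 1.48 and 4.43 scaled RPKM in Rosa and 1.69e-06 and 5.98e-07 in Linea larval discs, and a limma adjusted p of 0.64.

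In pupal wings after the dip no member passed the test between Rosa and Linea, and the share of members with higher values in Rosa depended on single libraries at late ommochrome. At early ommochrome limma called 0, where 0.0127% of all transcripts were called, and 8 members (13.3%) had an unadjusted p under 0.05, against 5.58% of all. The median difference was 0.49 for members, against -0.07 for all transcripts, and 41 of 60 members had a positive difference, against 45.2% of all. At late ommochrome limma called 0, where 0.00633% of all were called, 8 members (13.3%) had an unadjusted p under 0.05, against 5.35% of all, and the median was 0.48 against 0.05, with 42 of 60 members positive, against 53.6% of all. With 1 library left out, the early median was 0.31 to 0.59, lowest without Linea early ommochrome replicate 1, and 38 to 41 members were positive. The late median was 0.25 to 0.67, lowest without Rosa late ommochrome replicate 2. JC_0050797 and JC_0110897 were low in Linea early ommochrome replicate 2 and Linea late ommochrome replicate 1. Without the early one of these, the early median was 0.46 with 40 of 60 members positive (66.7%), against 46.5% of all transcripts. Without the late one, the late median was 0.27 with 32 of 60 positive (53.3%), against 53.6% of all, so the excess of positive members at late ommochrome was not seen without that library. With array weights 1 member (1.67%) was called at early ommochrome, where 0.392% of all transcripts were.

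That member, JC_0000509, was lower in Rosa and had the lowest p of the early ommochrome comparison. It had 0.301 and 0 scaled RPKM in Rosa and 13.7 and 6.09 in Linea early ommochrome wings, against 3.59 and 2.24 in Rosa and 1.08 and 0.725 in Linea late ommochrome wings. Larval discs held 5.59 and 3.6 in Rosa and 11.6 and 4.41 in Linea, and pre-pigment wings 0.0249 and 0 in Rosa and 0.0591 and 0.25 in Linea. Of the Rosa early ommochrome libraries, 1 was at 0 and the other, at 0.301, was just above the highest pre-pigment library at 0.25, while both Linea ones were well above it. The early difference of -3.16 ± 0.53 (SE, log2) had a limma adjusted p of 0.085, and 0.021 with array weights.

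JC_0111940 had the lowest p at late ommochrome and over the 3 stages together. It had 5.63 and 5.85 scaled RPKM in Rosa and 0.000244 and 0.659 in Linea late ommochrome wings, and 3.55 and 10.0 in Rosa and 1.49 and 1.03 in Linea early ommochrome wings. Larval discs held 1.62 and 4.37 in Rosa and 1.65 and 0.738 in Linea. Rosa and Linea overlapped in the larva and not in ommochrome wings. The late difference was 2.39 ± 0.54 (SE, log2) with a limma adjusted p of 0.40, and the difference averaged over the 3 stages 1.62 ± 0.31 with 0.24.

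Averaged over larval, early and late wings, limma called 0 members between Rosa and Linea, where 0.0253% of all transcripts were called. An unadjusted p under 0.05 was found in 7 members (11.7%), against 5.51% of all, and the median was 0.13 against -0.01. An F test for a morph difference that varies over these 3 stages called 0 members and 0% of all transcripts, with 7 members (11.7%) under an unadjusted p of 0.05, against 6.42% of all. The lowest limma adjusted p of that test was 0.24, for JC_0000509, and 1 member was called without Rosa larva replicate 3, where 0.592% of all transcripts were.

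In pre-pigment wings the morphs can only be described, since the rule bounds those values from above. The highest of the 4 libraries was a Rosa one in 20 members, replicate 1 in 5 and replicate 2 in 15, and a Linea one in 40, replicate 1 in 24 and replicate 2 in 16. The summary medians of 0.225 and 0.37 in Rosa and 0.759 and 0.548 in Linea show the same order.

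Of the members that peaked in ommochrome wings, JC_0033894 had the largest late excess and JC_0050382 the largest early one. JC_0033894 had 14.2 and 0.894 scaled RPKM in Rosa and 17.6 and 18.7 in Linea late ommochrome wings, and at most 0.661 before pigment. JC_0050382 had 0.338 and 3.35e-05 in Rosa and 5.11 and 22.9 in Linea early ommochrome wings, and at most 0.255 before pigment. In each, both Rosa libraries at the peak stage lay below both Linea ones. The late minus early difference of JC_0033894 was 1.54 ± 0.84 (SE, log2), and that of JC_0050382 was -0.54 ± 0.54.

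**Figure D5:**
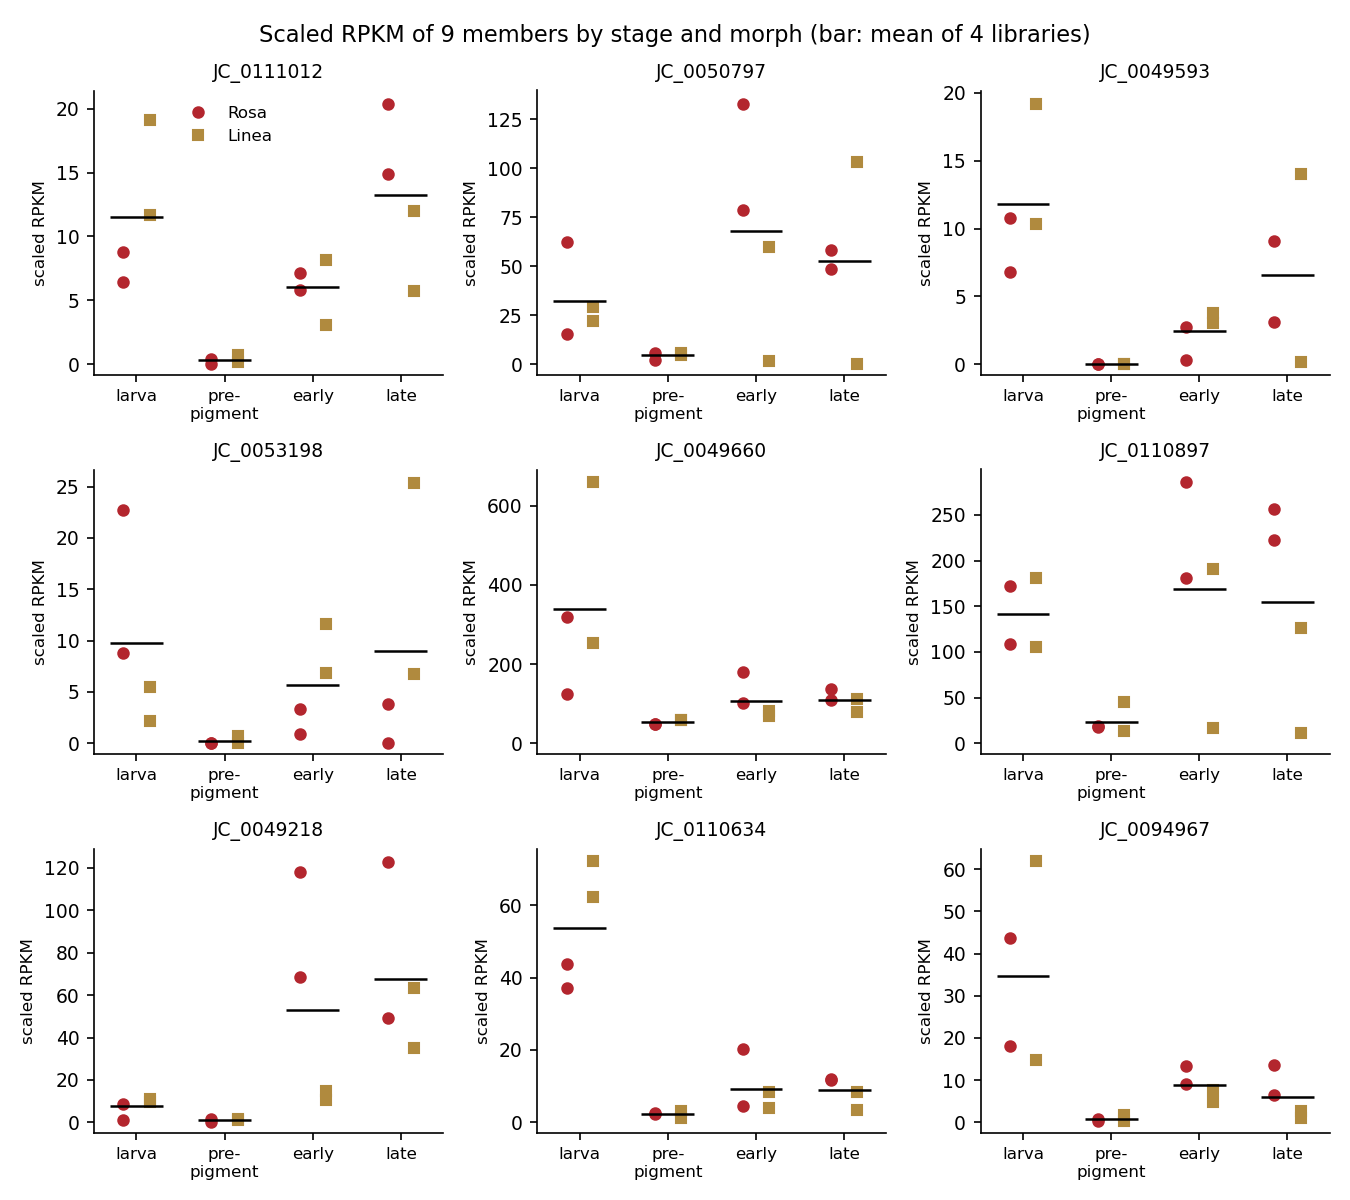
Scaled RPKM of 9 members at the 4 stages, 1 panel each with its own axis, with Rosa as red circles left of Linea as tan squares and the mean of the 4 libraries as a black bar. JC_0111012 has no overlap between pre-pigment wings and the rest; JC_0050797 and JC_0110897 each have 1 low Linea library in early and in late ommochrome wings; JC_0049218 is highest after the dip and JC_0110634 before it.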

How the data were processed

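Hind wing RNA of Junonia coenia was sequenced in 2 morphs and 4 stages. Amplified cDNA from polyadenylated RNA was sheared to 300 bp and read as pairs of 75 or 100 bp, per the labels' protocols. The authors deposited RPKM for 16251 transcripts. The submitters' processing notes name Bowtie 0.12.7 as a tool. How the transcripts were assembled, estimated or filtered is not given in the sources used. Of 20 labelled samples, 4 were not analysed here (Rosa larva replicate 1, Rosa early ommochrome replicate 2, Linea larva replicate 1 and Linea early ommochrome replicate 3). Depth is unknown. In all, 2595 values lay above 0 and below 0.001 RPKM, which may mean that reads were divided between transcripts. RPKM leaves no counts to test.

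Each library's RPKM was divided by its median ratio to the row geometric mean, taken over 7126 transcripts that reached 1 RPKM in all 16 libraries. A group-means model for the 8 morph and stage groups was fitted with limma 3.58.1 (R 4.3.3) to log2(scaled RPKM + 1), leaving 8 residual degrees of freedom; variances were moderated with a trend on level, and p-values were adjusted by Benjamini-Hochberg. Only the 15798 transcripts reaching 1 RPKM in 2 or more libraries entered. The threshold was 0.05. Of 11 comparisons in the fit, the 5 on morph within stages and its interaction with stage are read as tests. Their estimate of spread also draws on the pre-pigment libraries, which the rule used. The 3 against pre-pigment wings and the 3 among the other stages use stage means that the rule used, and are only described. The fit and the rule were tested on simulated data. Gene lists and cell type markers could not be matched to identifiers. As alternatives, scaling was dropped or replaced by quantile normalization, the pseudocount was lowered to 0.1, the low-value filter was lifted or raised to a mean of 5 RPKM, replicate number or array weights were added, the compared stages were fitted alone, and each library was left out.

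The members, lists and tests were chosen with earlier results of these data known. Transcripts were named by a rule: the 4 largest gaps, the 2 just inside and 2 just outside the cut, the 2 highest and 2 lowest levels, the largest excess of each stage, and per comparison up to 2 that rose and 2 that fell by most past the threshold with no overlap between groups (all where 5 or fewer were called, and the lowest p where none was).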

Additional observations from a re-analysis of the deposited data

Results flagged for a closer look

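Among the members named above and 3 summaries over all members, 92 groups of 4 libraries were examined. By Dixon's test 13 of them, all of single members, held a library far from the other 3. Chance gives about 1 in 20 groups where values spread normally. Here the values were not logged, each group mixes Rosa and Linea, and the rule bounds the pre-pigment values. No excess over chance is therefore read from the 13.

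In pre-pigment wings this was Linea replicate 1 for JC_0110897 at 45.0 scaled RPKM, for JC_0053198 at 0.725, for JC_0050382 at 0.255, for JC_0016691 at 0.0484 and for JC_0057296 at 0.0393. It was Linea replicate 2 for JC_0049593, at 0.00489. It was Rosa replicate 1 for JC_0111554 at 0.000457 and for JC_0094683 at 7.87e-05. All of these but the 45.0 of JC_0110897 were under 1 scaled RPKM.

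In early ommochrome wings JC_0111554 was high in Linea replicate 1, at 5.42 scaled RPKM, and JC_0052894 low in Linea replicate 2, at 1.45. In late ommochrome wings Rosa replicate 2 was high for JC_0111287 at 37.6, for JC_0016691 at 8.0 and for JC_0111554 at 7.77.

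Some of the members named above moved one way in both Rosa libraries and the other way in both Linea libraries. Only the named members were searched, some of them named for a low p between the morphs. How many of all transcripts move this way was not counted, and with 2 libraries per group such moves can arise by chance. The opposite moves were not tested one by one, and the F test over larva, early and late ommochrome called no member. JC_0053198 changed by -2.41 in Rosa and 1.14 in Linea (log2) between early ommochrome wings and larval discs, and by -2.79 in Rosa and 1.66 in Linea between late ommochrome wings and larval discs. Between late and early ommochrome wings JC_0050382 changed by 1.18 in Rosa and -2.25 in Linea, and JC_0000509 by 1.76 in Rosa and -2.43 in Linea. JC_0111940 changed by 0.84 in Rosa and -0.74 in Linea between late ommochrome wings and larval discs.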

How the results depend on the processing

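Membership, picked again, held 34 of the 60 with a pseudocount of 0.1 and 24 to 55 with 1 library left out. Picks from Linea with a gap above 0 in Rosa numbered 32 with RPKM as deposited, where 34.3% of all transcripts had one, and 11 to 12 with a Linea pre-pigment library left out; picks from Rosa above 0 in Linea numbered 1 to 8 with a Rosa pre-pigment library left out. Members called between early ommochrome wings and larval discs numbered 18 with RPKM as deposited (39.7% of all transcripts) and 5 to 9 with 1 library left out. Between late ommochrome wings and larval discs they numbered 17 with RPKM as deposited (38.9% of all), 5 with a pseudocount of 0.1, 4 with a fit on the compared stages alone and 5 to 13 with 1 library left out. For the morphs, array weights gave 1 at early ommochrome, and leaving out 1 library gave 0 to 3 in larval discs and 0 to 1 for the interaction. Full separation was found in 19 to 22 members with 1 library left out. Leaving out a library can only keep or raise that count, so it does not test the separation. Of all transcripts, 24.6% were called between late ommochrome wings and larval discs with all libraries. This share was 23.4% with a pseudocount of 0.1 and 22.9% with the compared stages alone. With 1 library left out, 1 group holds a single library, and the share of all transcripts called moved as well. Those ranges of called members are therefore not read as changes of the members alone. For full separation no such share is given. The causes were not tested. For 20 changes of members, 475 alternative values were computed, and 0 reversed direction. The 20 were the changes called with all libraries, and those of lowest p where no member was called. Some called changes no longer passed under an alternative. With RPKM as deposited the median of all transcripts moved to -0.725 between early ommochrome wings and larval discs and to -0.748 between late ommochrome wings and larval discs. With 2 libraries per group and unknown depth, small differences and values near 0 cannot be resolved.

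With the replicate number as a block, 5 members (8.33%) were called between late ommochrome wings and larval discs, 1 higher and 4 lower. Of all transcripts 19.2% were called there. Same-numbered Rosa and Linea libraries share only a number: their deviations from group means correlated at 0.171 in larval discs, 0.379 in pre-pigment wings, 0.036 in early and 0.172 in late ommochrome wings over 15798 transcripts, and the labels do not say that numbers pair samples.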

Other observations

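The members were spread unevenly over the authors' identifiers. Numbers 50000 to 59999 hold 15 members among 1136 transcripts (1.32%) and numbers 110000 to 119999 hold 20 among 2194 (0.912%), against 0.369% over the whole table. These blocks were chosen after their values were seen, and hold 35 of the 60 members beside 20.5% of all transcripts. Gaps above 0 were less uneven, at 6.69% and 6.97% of the transcripts in the 2 blocks, against 4.97% over the whole table. Numbers 80000 to 89999, which hold 1 member, had a higher share, 8.2%. What the numbering stands for is not given in the sources used here.

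Outside the pre-pigment stage the members did not move as a unit. Over the 12 libraries there, the median Pearson correlation of log2 levels over the 1770 pairs of members was 0.037, against -0.003 for members with all other transcripts, as a description only, since libraries are shared by all pairs. In 10 pairs it was above 0.8. The closest pair, chosen after its values were seen, was JC_0119320 and JC_0033446 at 0.962.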
